A study of Mus musculus with 3 samples.

Results

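Ect2 and 9 other genes of the cytokinesis machinery were followed over 3 arrays of mouse liver. Cytokinesis is the step that splits a cell after mitosis. The members were listed by name as Ect2, Racgap1, Kif23, Prc1, Kif20a, Plk1, Aurkb, Anln, Cit and Cep55. Every non-control probe with a RefSeq entry of these genes was taken, which gave 12 of the 55681 probes on each array. In 8 of the 10 genes a probe was well above background on all 3 arrays, against 13623 of the 20280 named genes with a probe.

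Each array held Cy3-labelled RNA copied from total RNA of mouse liver. The strain label was c57BL6/J and the time label 2 days, and the mice expressed hYAP (WT), hYAP (1SA) or hYAP (2SA). These 3 groups, called WT, 1SA and 2SA below, all carried Myc-tagged human YAP, a transcriptional coactivator that the Hippo pathway holds back. In 1SA a serine of YAP was changed to alanine, and 2SA carried a further such change. Per the methods, plasmids were delivered by hydrodynamic tail vein injection, a rapid injection of a large volume that itself injures the liver. A vector with hepatocyte promoter elements drove the transgene, and only part of the hepatocytes took it up. For this injection the methods give males of 8 weeks of age. With 1 array per group the spread between mice is unknown, and a difference between groups cannot be told apart from a difference between livers. Whether an array held RNA of 1 mouse or of a pool was not given, and the WT title ends in the number 2. A liver that received no YAP was not analysed here, so every difference is against WT YAP.

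During cytokinesis the spindle midzone forms first, bundled by the crosslinker Prc1 and patterned by motors such as Kif20a. Racgap1 and Kif23 assemble into centralspindlin, which binds Ect2 once Plk1 has phosphorylated Racgap1. Ect2 then loads the small GTPase RhoA with GTP at the cell equator, where Anln and the citron kinase Cit help to build and hold the contractile ring. Aurkb is the kinase of the chromosomal passenger complex, and Cep55 recruits the machinery that cuts the last bridge. These genes are transcribed mainly in late S phase and G2, and a resting liver divides little. The study also named Ect2 as an exchange factor for CDC42 and Rac. It picked Ect2 from genes raised in livers with active YAP, so the levels of Ect2 below are a description and not independent evidence of its direction.

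In 1SA liver all 8 measured members were above WT by more than the error between repeated spots, against 16.0% of all genes. In 2SA liver 7 of the 8 were, against 15.6% of all genes, and Cep55 was not, at a log2 difference of 0.20 ± 0.23. Ect2 differed from its partners in the step from 1SA to 2SA. Ect2 was 1.63-fold higher in 2SA than in 1SA, whereas the other 7 members lay between -0.28 (Prc1) and 0.11 (Racgap1) on the log2 scale.

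The promoters are shown because the members moved together against WT. Promoter windows of RefSeq on build GRCm38.p6, from 250 bases before to 50 after each transcription start, were at hand for 8 of the 10 members. Kif20a and Aurkb had no entry. The stretch from 100 bases before to 25 after the start is printed here 5′ to 3′ for Ect2, both centralspindlin genes, Prc1 and Plk1. Ect2 and Prc1 have 2 listed starts each, and the start nearer to the motif described next is shown. Capitals mark 2 motifs. One is the cell cycle genes homology region (CHR), searched as TTTGAA or TTTAAA, through which the DREAM and MuvB complexes hold cell cycle genes silent in resting cells and release them later. The other is the NF-Y box, CCAAT, which reads ATTGG on the other strand. The stretches chosen in the same way for Anln, Cit and Cep55 hold neither motif in full and are not printed.
Ect2 chr3:27153830-27153954 (-): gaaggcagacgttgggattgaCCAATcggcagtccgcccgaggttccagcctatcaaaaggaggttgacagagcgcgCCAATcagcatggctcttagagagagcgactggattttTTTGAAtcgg
Racgap1 chr15:99651632-99651756 (-): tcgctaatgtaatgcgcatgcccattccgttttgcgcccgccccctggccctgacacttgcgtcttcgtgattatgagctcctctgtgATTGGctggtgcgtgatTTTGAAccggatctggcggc
Kif23 chr9:61946775-61946899 (-): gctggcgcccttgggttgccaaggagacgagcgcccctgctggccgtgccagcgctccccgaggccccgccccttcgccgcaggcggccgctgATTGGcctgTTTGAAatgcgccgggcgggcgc
Prc1 chr7:80294351-80294475 (+): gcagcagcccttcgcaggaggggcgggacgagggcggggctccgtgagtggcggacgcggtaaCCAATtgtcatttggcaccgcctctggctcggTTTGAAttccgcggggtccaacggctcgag
Plk1 chr7:122159335-122159459 (+): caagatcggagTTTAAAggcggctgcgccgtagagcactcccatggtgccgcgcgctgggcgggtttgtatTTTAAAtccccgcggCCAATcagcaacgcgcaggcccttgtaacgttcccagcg

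A CHR element stood in the windows of 7 of the 8 members, all but Cit, when both strands and every listed start were searched. The same letters were found in 30.6% of the 27025 genes with a window. In the Ect2 window printed here the element began 16 bases after the start, and NF-Y boxes began 79 and 23 bases before it. The element began 6 bases after the start in Racgap1, 3 after it in Kif23 and 5 before it in Prc1. Plk1 held it at 89 and 29 bases before the start and once more at 31 after it. In Anln it began 22 and 29 bases after the start, and in Cep55 25 after 1 start and 33 before the other. An NF-Y box was found in 5 of the 8 members, all but Anln, Cit and Cep55, against 41.1% of genes. The TEAD motif, searched as GGAATG on both strands because TEAD factors carry YAP to DNA, was found in 2 of the 8 members, Racgap1 and Cit, against 16.6% of genes. Ect2 held none in its windows. No motif contains another. A match is a description of the letters and not a bound site, and no match says nothing of a site elsewhere.

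**Figure D1:**
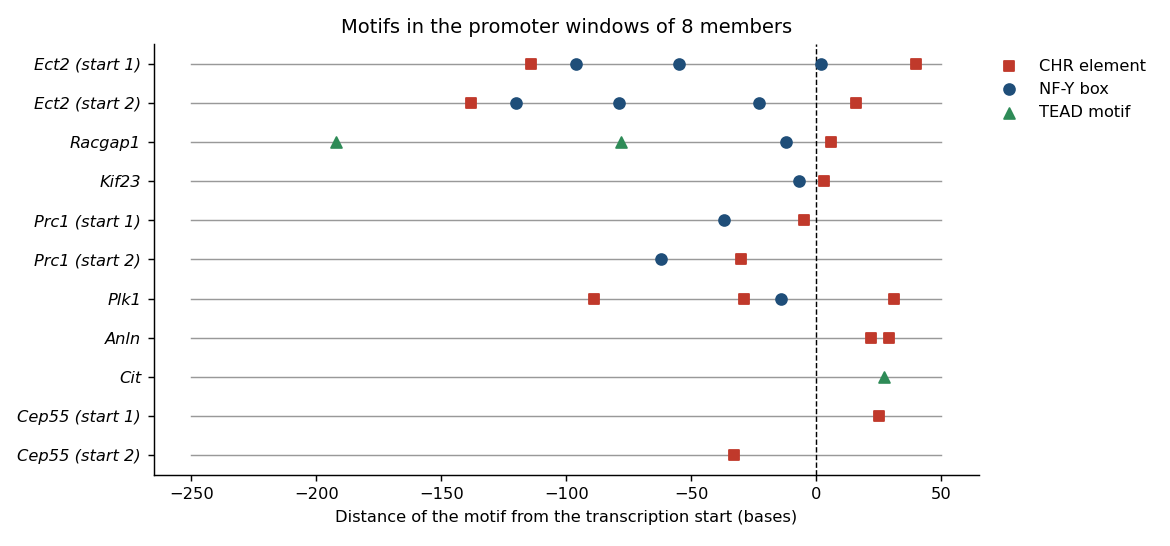
Position of each motif match in the promoter windows of 8 members, in bases from the transcription start (dashed line), with 1 line per start that holds a match and the CHR element as squares, the NF-Y box as circles and the TEAD motif as triangles. In Racgap1, Kif23 and Prc1 the CHR element lies close to the start with an NF-Y box just before it, and Cit is the only member without a CHR element.

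The values of the members follow, first as the deposited intensity of a spot in arbitrary units. Intensity was not scaled between arrays, and the 75th percentile of all non-control spots was 291 in WT liver, 276 in 1SA liver and 319 in 2SA liver. Differences are therefore differences of log2 intensity after each array was divided by this percentile. Each member probe had 1 spot. The error beside a difference is that of the scanner software's error model. Probes spotted several times gave a second measure, an SD of 0.10 for a log2 difference. A difference of more than 0.21, which is 2 of these SDs, is called beyond the spot limit here. For the members this limit is about as large as 1 error-model error of a difference from WT, 0.20 to 0.23. Neither error covers the spread between mice, labelling or hybridisation.

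Ect2 (NM_007900) had an intensity of 189.8 ± 19.2 in WT liver, 356 ± 35.7 in 1SA liver and 670.5 ± 67.1 in 2SA liver (error of the scanner software). The level was lowest in WT and highest in 2SA, and the error ranges did not meet. On the log2 scale Ect2 was higher by 0.98 ± 0.20 in 1SA and by 1.69 ± 0.20 in 2SA than in WT, or 1.98-fold and 3.22-fold. Only 0.800% of the 13623 measured genes had a larger difference in 1SA, and 0.184% did in 2SA. From 1SA to 2SA Ect2 was higher by 0.70 ± 0.20, with 5.24% of genes above it. That step ranged from 0.63 to 0.78 over 7 other ways of processing the arrays. Averaging probes or changing the filter on dim probes could not move it, because Ect2 had a single probe.

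Racgap1 (NM_012025), the GTPase-activating subunit of centralspindlin and the docking partner of Ect2, had 2 probes. The brighter one, which stands for the gene below, had an intensity of 334 in WT liver, 509 in 1SA liver and 638 in 2SA liver. The other had 174, 235 and 268. Relative to WT the log2 difference was 0.68 for 1SA and 0.80 for 2SA by the first probe, and 0.51 and 0.49 by the second. Both probes put WT lowest, and between 1SA and 2SA they differed by 0.11 and -0.02, both inside the spot limit.

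Kif23 (NM_024245), the kinesin motor of centralspindlin, had an intensity of 47.0 in WT liver, 88.2 in 1SA liver and 104 in 2SA liver. The log2 difference from WT was 0.99 ± 0.23 for 1SA and 1.01 ± 0.23 for 2SA. Kif23 thus matched Ect2 in 1SA but not in 2SA, where its step from 1SA was 0.02. Kif23 depended on the background correction. Normexp correction, which models background and signal of the raw spots, lowered its differences to 0.56 for 1SA and 0.54 for 2SA.

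Prc1 (NM_145150), the crosslinker that bundles antiparallel microtubules of the midzone, had an intensity of 494 in WT liver, 843 in 1SA liver and 804 in 2SA liver. Its log2 difference was 0.85 for 1SA and 0.57 for 2SA. Prc1 was the only measured member that was lower in 2SA than in 1SA by more than the spot limit, by a difference of -0.28 ± 0.20. With the series matrix values it was -0.20, inside the limit. Kif20a (NM_009004), the kinesin that carries passenger proteins to the midzone, had an intensity of 410.1 in WT liver, 599.9 in 1SA liver and 689.8 in 2SA liver. After scaling, its log2 difference from WT was 0.63 for 1SA and 0.61 for 2SA, and the step between the mutants was -0.01.

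Plk1 (NM_011121), the polo kinase, had an intensity of 522 in WT liver, 753 in 1SA liver and 934 in 2SA liver. Its log2 difference was 0.60 for 1SA and 0.70 for 2SA, a step of 0.10 that lay inside the spot limit. Aurkb (NM_011496), the Aurora kinase of the passenger complex, was well above background on 2SA only. Its intensity was 3.43 in WT liver, 9.13 in 1SA liver and 14.3 in 2SA liver. Against the lowest signal counted as measured on the dim array, Aurkb in 2SA was at least 1.04-fold higher than in WT and at least 1.20-fold higher than in 1SA. The bounds lie close to equal levels, so Aurkb could not be placed beside the other members.

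Anln (NM_028390), the anillin scaffold of the contractile ring, had an intensity of 199.8 in WT liver, 349.7 in 1SA liver and 412 in 2SA liver. Its log2 difference was 0.88 for 1SA and 0.91 for 2SA, so both mutants stood above WT and differed from each other by 0.03. Cit (NM_007708), the ring kinase, was not well above background on any array, with intensities of 3.49, 11.2 and 4.29. Cep55 (NM_028760), which recruits the abscission machinery, had 2 probes. One of them was not well above background on any array (2.68, 3.31 and 2.15). The other had an intensity of 49.8 in WT liver, 60.1 in 1SA liver and 62.9 in 2SA liver. Cep55 had the smallest log2 differences of the measured members, 0.35 ± 0.23 in 1SA and 0.20 ± 0.23 in 2SA, and the second lay inside the spot limit. Normexp correction gave 0.21 and 0.09.

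**Figure D2:**
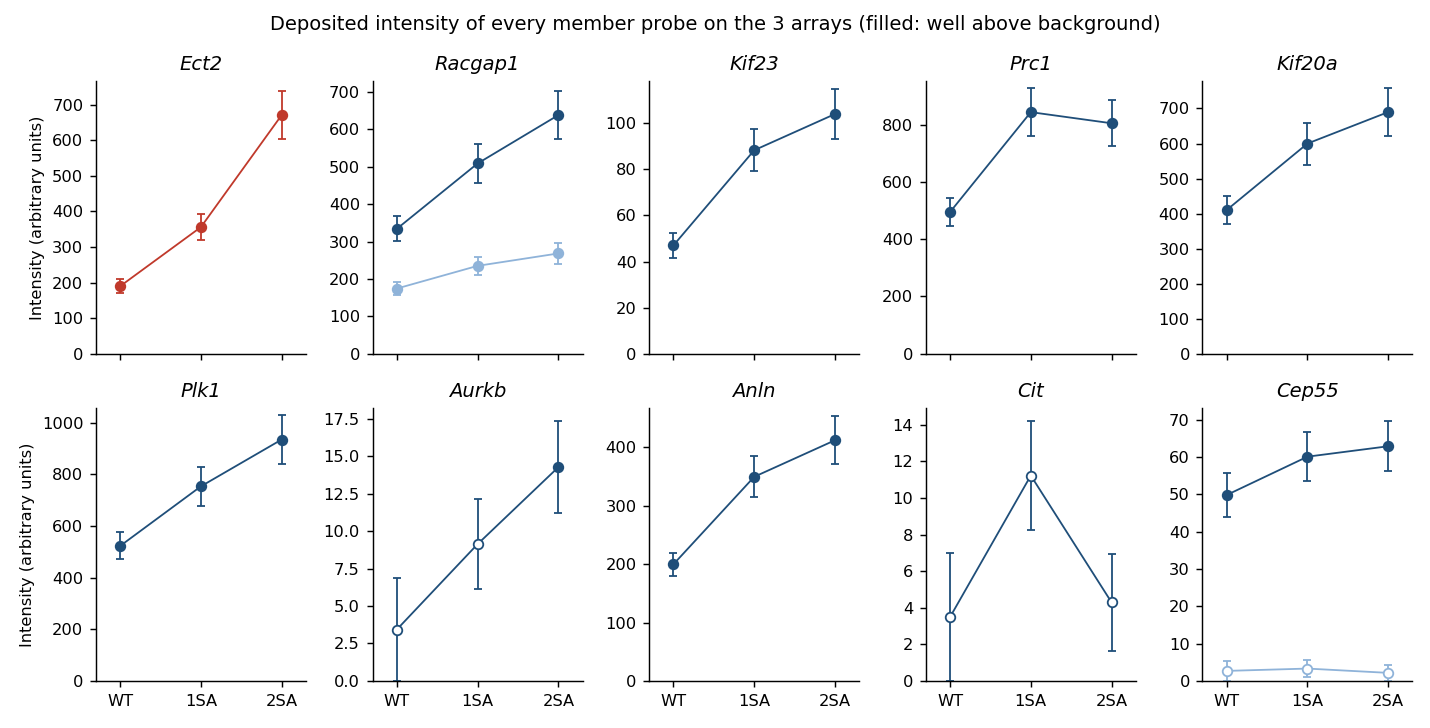
Deposited intensity (arbitrary units, linear axis from 0) of every member probe on the WT, 1SA and 2SA arrays, with the scanner software's error as bars, filled points well above background and open points not, and the probe that does not stand for its gene in pale blue. Ect2 climbs at both steps, from 189.8 to 356 to 670.5, while Prc1 is highest in 1SA, and Cit, 1 Cep55 probe and Aurkb outside 2SA are not well above background.

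**Figure D3:**
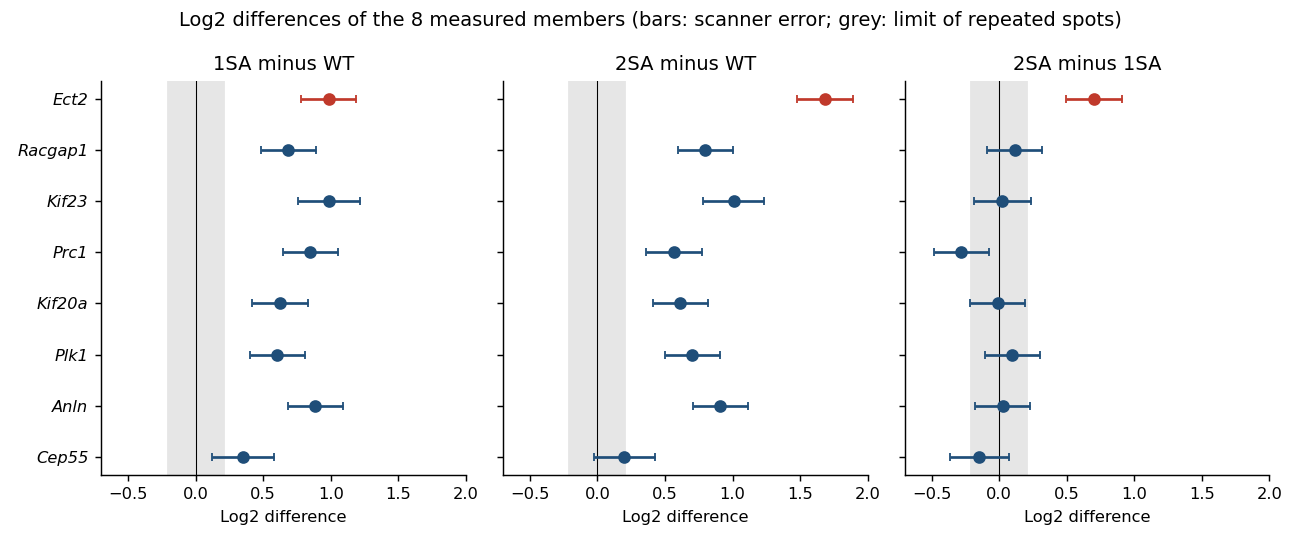
Log2 difference of the 8 measured members for 1SA minus WT, 2SA minus WT and 2SA minus 1SA after scaling to the 75th percentile, with error-model errors as bars and the spot limit of 0.21 as a grey band. Ect2 stands alone at 0.70 in 2SA minus 1SA, with the other 7 members between -0.28 and 0.11.

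As a group, the 8 measured members had a median log2 difference of 0.77 for 1SA and 0.75 for 2SA against WT. Over all 13623 genes the median was -0.002 and -0.03, with the central 90% of genes from -0.56 to 0.44 and from -0.47 to 0.50. In 1SA all 8 members were higher than WT by more than the spot limit, against 16.0% of all genes. In 2SA 7 of 8 were, all but Cep55, against 15.6% of genes. A 2-fold difference was reached by none of the 8 in 1SA (0.727% of all genes), where Kif23 and Ect2 lay just short of it at 1.98-fold. In 2SA it was reached by Ect2 at 3.22-fold and by Kif23, just past it at 2.02-fold (1.12% of all genes). With each array divided by its median in place of its 75th percentile, 2 members passed 2-fold in 1SA, so the count of 0 rests on the scaling. Since the members were chosen with earlier results of these arrays known, these counts describe them and are not tests.

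Between the mutants the members no longer moved together. The median log2 difference of 2SA minus 1SA was 0.02, against -0.03 over all genes, and none of the 8 reached 2-fold (2.47% of all genes). Ect2 was the only member higher in 2SA by more than the spot limit, against 21.3% of genes, and Prc1 was the only one lower. In 5 of the 8 members the levels ran in the order WT, 1SA, 2SA, as they did in 11.3% of genes. These were Ect2, Racgap1, Kif23, Anln and Plk1. Among the 5, the second step was beyond the spot limit in Ect2 alone. Which genes follow this order depends on the processing, as with normexp correction the second step was -0.03 in Kif23 and 0.12 in Kif20a. Put as a share of the full log2 difference of 2SA from WT, 1SA had already reached 58.4% in Ect2. It had reached 85.7% in Racgap1, 86.0% in Plk1, 97.2% in Anln and 97.7% in Kif23. It exceeded the 2SA level in Kif20a, Prc1 and Cep55, beyond the spot limit only in Prc1. Both differences share the WT array, so an error on that array moves all of these shares.

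The ratio of Ect2 to a partner on the same array does not depend on the scaling of the arrays. From WT to 1SA the ratio differed by less than 2 of its error-model errors in 6 of the 7 partners and by 1.56-fold in Cep55. Ect2 over Kif23 was 0.998 times its WT value, Ect2 over Anln 1.07 times, Ect2 over Racgap1 1.23 times and Ect2 over Plk1 1.30 times. From WT to 2SA the ratio was higher for every measured partner, at 1.60-fold for Kif23, 1.71-fold for Anln, 1.85-fold for Racgap1, 1.98-fold for Plk1, 2.10-fold for Kif20a, 2.17-fold for Prc1 and 2.80-fold for Cep55. From 1SA to 2SA it was 1.50-fold (Racgap1) to 1.98-fold (Prc1). On the log2 scale the error-model error of such a ratio was 0.29 to 0.30 in that step, and the smallest of the 7 differences, Ect2 to Racgap1 at 0.59, was still over 2 of these errors. Against the median of the other 7 members, the difference of Ect2 was larger by 0.30 in 1SA, by 0.98 in 2SA and by 0.68 in 2SA against 1SA. With no filter on dim probes, which adds Cit and Aurkb, the value for 1SA was 0.14. All of these rest on the single probe and single spot of Ect2 on each array.

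**Figure D4:**
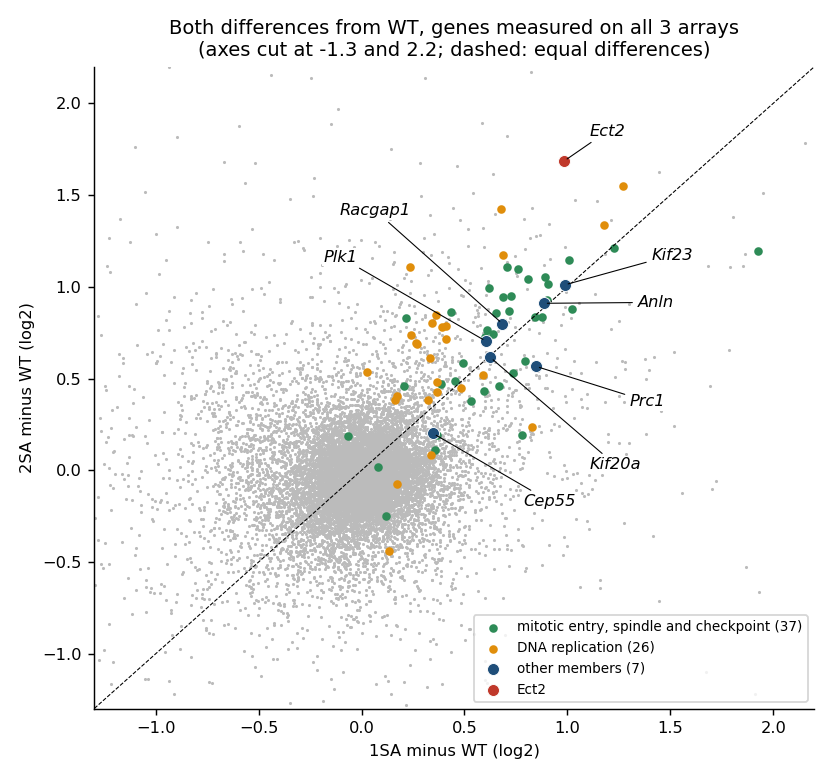
Log2 difference of 1SA minus WT (horizontal) and 2SA minus WT (vertical) for genes measured on all 3 arrays (grey), with the DNA replication list, the mitotic list and the members coloured, the axes ending at -1.3 and 2.2, and both axes sharing the WT array. Ect2 lies at 0.98 and 1.69, well above the line of equal differences, while Kif23, Anln, Kif20a and Plk1 lie near the line and Prc1 and Cep55 below it.

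The other genes of the pathway were read from lists. The 3 partners of Aurkb in the chromosomal passenger complex were all measured. All 3 were above the spot limit in both mutants, against 16.0% of all genes in 1SA and 15.6% in 2SA. Incenp, its scaffold, differed from WT by 0.39 for 1SA and 0.64 for 2SA on the log2 scale. Birc5, survivin, differed by 0.51 and 0.38, and Cdca8, borealin, by 0.60 and 0.85. Of 5 further midzone proteins, Kif4 and Kif20b were measured. The chromokinesin Kif4 differed by 0.31 for 1SA and 0.84 for 2SA, and the kinesin Kif20b by 0.53 and 1.02. In both, the step of 2SA over 1SA was beyond the spot limit, at 0.53 and 0.49, so a second step was not particular to Ect2. Clasp2 was not above background, and Kif14 and Clasp1 had no named probe.

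Downstream of Ect2, the list of small GTPases, actomyosin ring proteins and septins had 20 of 21 genes measured. Its median log2 difference was -0.10 for 1SA and 0.06 for 2SA, with 4 and 3 of 20 genes above the spot limit, against 16.0% and 15.6% of all genes, and 6 and 1 below it. The counts above the limit were thus near the background. The share of all genes below the limit was not counted, so the 6 and 1 have no background beside them. Rhoa, the GTPase that Ect2 loads, had an intensity of 5473 in WT liver, 5124 in 1SA liver and 5819 in 2SA liver. After scaling, Rhoa differed from WT by -0.02 and -0.05, both inside the spot limit. Diaph3, a formin that nucleates actin, was the list's highest gene in both mutants at 0.99 and 0.97. Arhgap11a, a GTPase-activating protein of dividing cells, was higher by 0.80 and 0.56. The myosin light chains went apart. Myl9 was lower, by -0.74 for 1SA and -0.42 for 2SA, whereas Myl12a differed by -0.21 for 1SA and by 0.68 for 2SA.

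Of the abscission and ESCRT-III genes, whose filaments cut the bridge after Cep55 has assembled, 18 of 18 were measured. The median log2 difference was -0.02 for 1SA and 0.009 for 2SA. None passed the spot limit in 1SA in either direction. In 2SA 2 of the 18 were above it, against 15.6% of all genes, Chmp4c at 0.70 and Tsg101 at 0.32. The ESCRT genes also serve membrane traffic in resting cells, and like Rhoa they were measured on all 3 arrays.

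Genes of mitotic entry, spindle and checkpoint resembled the partners of Ect2. Of 44 listed, 37 were measured, with a median log2 difference of 0.67 for 1SA and 0.83 for 2SA. Above the spot limit were 33 of the 37 for 1SA and 31 for 2SA, against 16.0% and 15.6% of all genes. Between the mutants 10 were higher and 5 lower in 2SA beyond it, with a median of 0.09. The 10 of 37 stand against 21.3% of all genes, near the background. For the 5 lower genes no such share was counted. Cdk1, the kinase that drives mitotic entry, differed from WT by 0.89 and 1.05, and Cdc20, which activates the anaphase-promoting complex, by 0.88 and 0.84. Nuf2 of the kinetochore differed by 1.22 and 1.21. With normexp correction the median of this list in 2SA was 0.40, and with only probes brighter than the median measured probe it was 0.48.

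Genes of DNA replication went further in 2SA, as Ect2 did. Of 28 listed, 26 were measured, with a median log2 difference of 0.35 for 1SA and 0.65 for 2SA. Between the mutants the median was 0.28, and 16 of the 26 were higher in 2SA beyond the spot limit, against 21.3% of all genes. Mcm5 of the replicative helicase differed from WT by 0.68 for 1SA and 1.42 for 2SA. The licensing factor Cdt1 differed by 0.24 and 1.11, a step of 0.87 between the mutants. Ccne1 ran the other way, with 0.83 for 1SA and 0.24 for 2SA. The difference between the replication and the mitotic list was not tested, because 1 array per group allows no test.

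**Figure D5:**
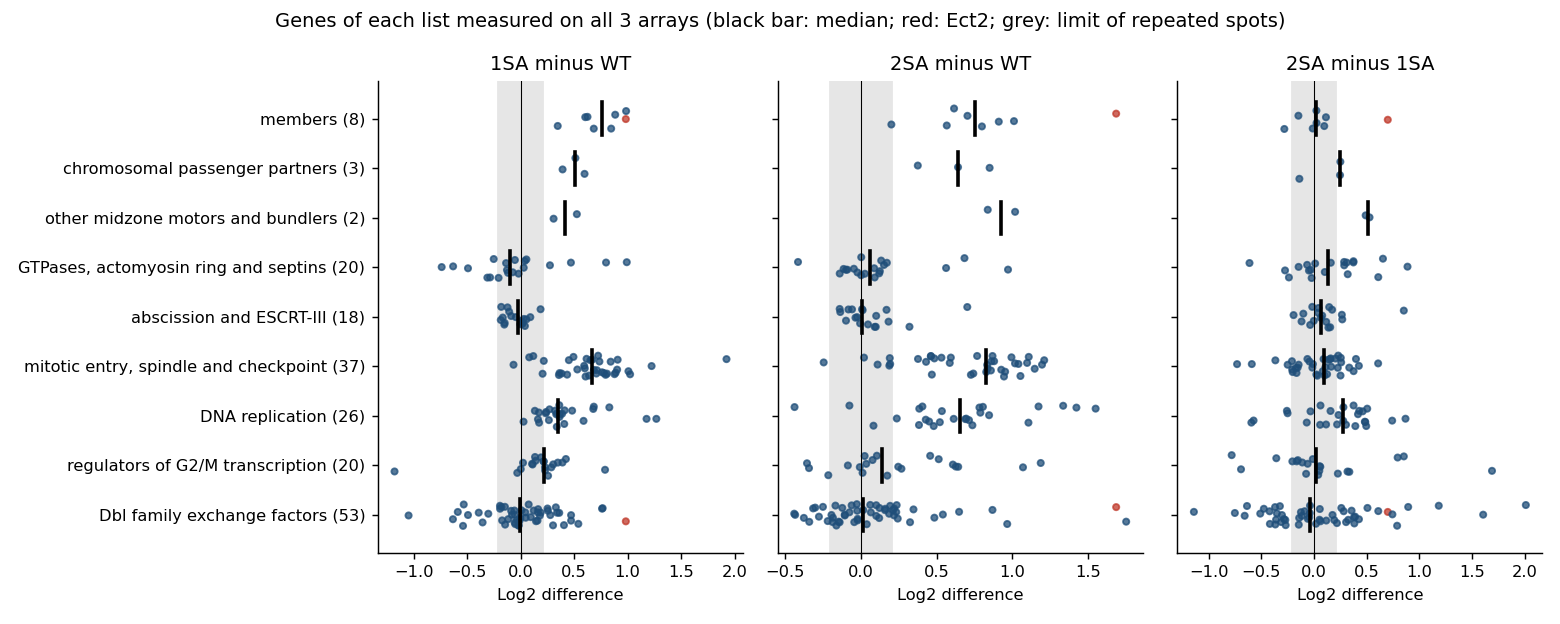
Log2 difference of every gene measured on all 3 arrays in each of 9 lists, for the 3 comparisons, with the list median as a black bar, Ect2 in red and the spot limit as a grey band. The members and the mitotic list stand to the right of the band against WT and near 0 in 2SA minus 1SA, the replication list keeps a median of 0.28 there, and the medians of the GTPase and ring, ESCRT and Dbl lists lie inside the band.

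The known regulators of G2/M transcription, 20 of 20 measured, had a median log2 difference of 0.22 for 1SA and 0.14 for 2SA. Foxm1, an activator at CHR elements, had an intensity of 126 in WT liver, 207 in 1SA liver and 214 in 2SA liver. Its differences of 0.79 and 0.63, with -0.16 between the mutants, ran like those of the midzone partners. Mybl2, the other activator at these elements, differed by 0.19 and 0.25. The S phase activator E2f1 differed by 0.39 for 1SA and 1.19 for 2SA, and the repressor E2f8 by 0.22 and 1.07. Both went further in 2SA, as Ect2 and the replication list did.

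Among the lists, the CHR element was found in 26 of 37 mitotic genes with a window (70.3%), in 2 of 2 passenger partners and in 4 of 4 further midzone genes. It was found in 7 of 23 replication genes (30.4%), close to the 30.6% of all genes, and in 8 of 52 Dbl family genes (15.4%). The Ect2 windows hold both the CHR element and NF-Y boxes. No binding was measured in these livers.

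Ect2 is also a member of the Dbl family, the exchange factors that activate small GTPases such as RhoA, CDC42 and Rac. Of 63 listed family genes, 53 were measured, with a median log2 difference of -0.002 for 1SA and 0.01 for 2SA. Ect2 had the highest difference of the family in 1SA. In 2SA it was second to Arhgef10, at 1.75, whose intensity was 17.9 in WT liver, 18.7 in 1SA liver and 66.1 in 2SA liver. These 2 of the 53 were at least 2-fold higher than WT in 2SA (1.12% of all genes), and 0 of the 53 were in 1SA (0.727% of all genes). Fgd3, the other exchange factor the study named, was lower than WT in 1SA, by -1.05, and higher in 2SA, by 0.97. Its intensity was 109.6 in WT liver, 50.3 in 1SA liver and 235 in 2SA liver, so Fgd3 and Ect2 went apart in 1SA.

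The genes whose pattern was most like that of Ect2 were found by the distance between both log2 differences from WT. Of the 13623 genes measured on all 3 arrays, those with clone or predicted names were left out, and places are counted among the rest. Meig1 was nearest at 0.22, with differences of 1.03 for 1SA and 1.47 for 2SA. Rad51ap1 followed at 0.27, Klf11 at 0.31, Rrm2, the ribonucleotide reductase subunit of S phase, at 0.32 and Shcbp1 at 0.35. Rrm2 had an intensity of 932 in WT liver, 2129.7 in 1SA liver and 2997 in 2SA liver. The nearest of the other members was Kif23 in place 43, at a distance of 0.68, followed by Anln in place 61 and Racgap1 in place 108. With 3 arrays a near pattern is a description of these livers.

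Liver RNA comes from several cell types, and in such bulk RNA fewer cells of a type and less RNA per cell cannot be told apart. The hepatocyte list had 9 of 9 genes measured, with a summed scaled level of 3429 in WT liver, 3824 in 1SA liver and 3008 in 2SA liver. Red cell precursors also divide. The erythroid list had 8 of its 12 genes on the array measured, with a summed level of 203 in WT liver, 346 in 1SA liver and 270.5 in 2SA liver and a median log2 difference of 0.81 for 1SA and 0.44 for 2SA. With no filter on dim probes these medians were 0.41 and 0.17. Of the 8 genes, 7 were above the spot limit in 1SA and 6 in 2SA, against 16.0% and 15.6% of all genes. The globin genes lay between 0.75 (Hba-a2) and 1.01 (Hbb-bt) in 1SA. Among the genes of red cell precursors, Alas2 differed by 0.43 for 1SA and 0.09 for 2SA, Slc4a1 by 0.38 and 0.08, and Klf1 by -0.11 and 0.26. Epb42, Trim10 and Rhag were not above background on any array. In the neutrophil and monocyte list 5 of 8 genes were measured, with a sum of 10.5 in WT liver, 13.9 in 1SA liver and 10.3 in 2SA liver, and Ccr2 was higher by 2.33 for 1SA and 0.85 for 2SA. The lymphocyte list had 5 of 8 measured and a sum of 43.6, 38.7 and 32.8. The part of these cells in the members' levels was not tested.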

How the data were processed

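Cy3-labelled RNA copied from total RNA of mouse liver was hybridised to 3 one-colour Agilent SurePrint mouse arrays. There was 1 per group, taken from the sample labels. The deposited intensity of a spot (gProcessedSignal) is its brightness on a linear scale, made by the authors with Agilent Feature Extraction 10.10.1.1 per the file headers, with the local background and spatial trends already removed. It was not scaled between arrays. The probes were placed on mm9. Feature Extraction's own error of each intensity was read beside it.

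Each array held 59305 non-control spots of 55681 probes. Spots marked as outliers (148 to 182 per array) were left out, and 0 were saturated. Spots of a probe were averaged as log2 intensity, and each array was then scaled by subtracting the log2 of its 75th percentile over non-control spots. A probe counted as measured where at least 50% of its spots were marked well above background, which held for 28972 probes on WT, 29705 on 1SA and 30784 on 2SA. Probes were named by RefSeq entry through a gene table of GRCm38.p6, used for names only, which named 26756 probes. A gene was its brightest probe measured on all 3 arrays. Genes named in the text were the members, the genes of the lists and the 5 genes nearest to Ect2. The members and the 9 role lists and 9 marker lists were chosen with earlier results of these data known. With 1 array per group no test could be run, and the number of arrays limits the precision. The spot limit is 2 SDs of a difference, from 311 to 321 measured probes per array with repeated spots. The gene table lacked 1 listed symbol, and some listed genes are not reported here.

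The alternatives were the array median, quantile normalisation, normexp (offset of 50, on median spot and local background signals), values of the series matrix (the same intensity times a constant per array of 3.02, 3.08 and 2.81), the mean of all measured probes, no filter and a stricter filter on dim probes, and a 3-fold threshold. The calculation was tested on simulated data. Python 3.11.15 with pandas 2.3.3, numpy 2.4.6, scipy 1.17.1 and matplotlib 3.10.9, and R 4.3.3 with limma 3.58.1, were used.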

Additional observations from a re-analysis of the deposited data

Results flagged for a closer look

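Some listed genes lay on opposite sides of WT in the 2 mutants, each by more than the spot limit. With 1 array per group these differences between the mutants were not tested. The largest values of 2SA minus 1SA, on the log2 scale, were 2.01 in the exchange factor Fgd3 and 1.69 in Cdkn1a, the cyclin-dependent kinase inhibitor p21, which had an intensity of 463 in WT liver, 194 in 1SA liver and 726 in 2SA liver. The exchange factors Vav3 and Dnmbp were also lower than WT in 1SA and higher in 2SA, with 1.19 and 0.90 between the mutants. The opposite order was found in the exchange factors Tiam2 at -1.14 and Arhgef16 at -0.66, and in the transcription factors E2f5 at -0.78 and E2f3 at -0.69. The megakaryocyte list, of which Pf4 was the only gene measured on all 3 arrays, differed by 1.43. None of the 10 members was among these genes.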

How the results depend on the processing

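No difference of a member beyond the spot limit changed its direction under an alternative, but the step of Prc1 from 1SA to 2SA was -0.20 with the series matrix values. Inside the limit, normexp moved the step of Kif20a from -0.01 to 0.12 and that of Kif23 from 0.02 to -0.03. It moved the mitotic list's from 0.09 to -0.02. Normexp correction of the background lowered Ect2 to 0.78 in 1SA and 1.41 in 2SA, the members' median to 0.58 and 0.60, the excess of Ect2 over the other members in 2SA to 0.85 and the count at least 2-fold higher in 2SA to 1. In 1SA that count was 2 with the array median, 1 with quantile normalisation and 2 with no filter on dim probes. In 2SA it was 1 with the stricter filter, which left 6 members measured, and 1 at 3-fold. With no filter, the excess of Ect2 in 1SA was 0.14. The cause of these changes was not tested, apart from the members that the filters add or remove. The scalings moved the median of all genes by 0.08 at most. The step of Ect2 from 1SA to 2SA stayed between 0.63 and 0.78, where the settings on probe averaging and filtering could not move its single probe. Aurkb, Cit and 1 Cep55 probe are limited by signal over background. No paired analysis was possible because there was 1 array for each form of YAP.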

Other observations

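Other cell type lists also differed between the livers, with a median log2 difference from WT given for 1SA and then 2SA. The 6 Kupffer cell genes had -0.39 and -0.94, with a summed scaled level of 199 in WT liver, 143 in 1SA liver and 98.5 in 2SA liver, with Marco at -1.21 and -1.59, Adgre1 at -0.49 and -0.16, Cd5l at -0.42 and -0.84, Timd4 at -0.36 and -0.97, Vsig4 at 0.07 and -0.90 and Clec4f at 0.45 and -1.56. The 5 bile duct genes had -0.82 and -0.06, with Spp1, osteopontin, at -1.73 and -0.31. The bile duct median for 1SA was -0.17 with normexp and -1.73 with the stricter filter on dim probes, and for 2SA it was -0.31 with that filter. The 6 measured stellate cell and fibroblast genes had -0.12 and -0.59, and the 7 sinusoidal endothelial genes -0.11 and -0.11. The 5 measured lymphocyte genes had 0.03 and -0.07, the 5 measured neutrophil and monocyte genes 0.23 and 0.13, and the 9 hepatocyte genes 0.10 and -0.13. Under the other settings the stellate median for 1SA lay between -0.54 and -0.01, the lymphocyte median for 2SA between -0.30 and 0.08, and the neutrophil and monocyte median reached 0.08 for 1SA and 0.29 for 2SA with no filter.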
